A study of Homo sapiens with 8 samples.

Results

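The genes of the phagocyte NADPH oxidase that are described here are CYBB, CYBA, NCF1, NCF4 and RAC2. The measurement is open chromatin in U-937, a human monocytic cell line. Every open-chromatin region that overlapped the body of one of the 5 genes, extended by 50 kb on each side, was taken, which gave 89 of the 161291 regions found over the whole genome. Gene bodies and starts come from GENCODE on hg38. Because a window also covers neighbouring genes, 35 of the 89 regions lay nearest to the start of an oxidase gene and 19 overlapped an oxidase gene body.

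Cells were kept for 24 h in DMSO, the vehicle, in 0.1 µM ATRA, in 0.1 µM Corin or in 0.1 µM of each together, called the combination below. ATRA, all-trans retinoic acid, activates the retinoic acid receptors, and Corin inhibits the histone demethylase LSD1 and the histone deacetylases of the CoREST complex. ATAC-seq uses a transposase that inserts sequencing adapters where DNA is accessible, and it was performed on 2 samples in each of the 4 groups. Each group is represented by 1 deposited list of peaks, so there is no spread between replicates, no difference between lists could be tested, and all differences below are descriptions of 4 lists. All of the cells are from 1 cell line, and in such bulk material a smaller number of cells with an open site and a less open site in every cell cannot be told apart.

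In phagocytes this oxidase passes electrons from NADPH across the membrane to oxygen and makes superoxide, which serves in the killing of microbes. CYBB encodes the catalytic membrane subunit and CYBA the smaller membrane subunit that stabilises it, NCF1 encodes the cytosolic organizer that is phosphorylated on activation, NCF4 a cytosolic subunit that binds a phosphoinositide of the phagosome membrane, and RAC2 the small GTPase that joins the active complex. Genes of the oxidase such as CYBB and NCF1 are known as markers of myeloid maturation. Loss of CYBB, CYBA, NCF1 or NCF4 causes chronic granulomatous disease.

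The sequences on which the comparison turns are shown first. The 3 promoters are those of the 5 genes that the RefSeq table (GRCh38.p14) holds, and they are shown because the CYBA start was called as open in every list while the NCF1 and CYBB starts were called in none. Each is written 5′ to 3′ on the strand of its gene and stops before the first annotated base of a UTR. Capitals mark matches, on either strand, to PU.1 (GAGGAAGT), C/EBP (TTGCNNAA), IRF (GAAA, repeated after 2 free bases), AP-1 (TGANTCA), RUNX (TGTGGT) and the GC box (GGGCGG), and a match that runs past the printed end is cut there.
CYBB promoter, chrX:37779809-37780017, plus strand: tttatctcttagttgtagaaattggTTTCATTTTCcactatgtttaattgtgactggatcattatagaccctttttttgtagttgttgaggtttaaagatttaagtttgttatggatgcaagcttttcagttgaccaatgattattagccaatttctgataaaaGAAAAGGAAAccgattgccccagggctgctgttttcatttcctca
CYBA promoter, chr16:88651084-88651303, minus strand: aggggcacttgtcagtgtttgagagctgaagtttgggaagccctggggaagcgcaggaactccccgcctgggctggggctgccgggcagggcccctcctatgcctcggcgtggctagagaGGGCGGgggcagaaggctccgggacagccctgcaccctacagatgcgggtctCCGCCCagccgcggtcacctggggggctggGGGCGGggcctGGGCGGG
NCF1 promoter, chr7:74773761-74774010, plus strand: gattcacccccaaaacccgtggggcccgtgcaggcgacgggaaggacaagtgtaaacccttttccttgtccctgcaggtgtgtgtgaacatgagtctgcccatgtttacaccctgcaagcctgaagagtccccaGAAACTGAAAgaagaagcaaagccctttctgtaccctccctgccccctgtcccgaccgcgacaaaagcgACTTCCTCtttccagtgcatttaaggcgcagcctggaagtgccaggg

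Over the 250 bases before the start, the CYBB promoter held 2 IRF matches, the NCF1 promoter held 1 IRF and 1 PU.1 match, and the CYBA promoter held 6 GC boxes. Among 35116 promoter stretches of the same length, 3.02% held an IRF match, 2.17% a PU.1 match and 42.6% a GC box. GC content was 34.0% in the CYBB stretch, 56.4% in the NCF1 stretch and 73.6% in the CYBA stretch. A match is a description of letters and not a bound site.

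A second set consists of 200 bases of hg38 centred on the summit of 4 distal regions in which the lists differed, with capitals as above. The first pair is shown because the ATRA list stood highest there, the third because the ATRA and Corin lists moved apart, and the last because only the 2 lists with Corin held it.
NCF4 +60.8 kb, chr22:36921527-36921726, plus strand: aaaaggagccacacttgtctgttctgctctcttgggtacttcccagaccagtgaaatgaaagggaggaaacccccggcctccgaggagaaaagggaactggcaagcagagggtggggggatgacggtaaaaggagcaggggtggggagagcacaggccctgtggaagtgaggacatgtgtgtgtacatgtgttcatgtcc
CYBA +51.7 kb, chr16:88599257-88599456, plus strand: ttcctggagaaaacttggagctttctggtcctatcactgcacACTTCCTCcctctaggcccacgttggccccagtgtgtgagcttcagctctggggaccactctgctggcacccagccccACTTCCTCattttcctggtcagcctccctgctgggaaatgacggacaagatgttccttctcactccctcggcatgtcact
RAC2 −59.8 kb, chr22:37303871-37304070, plus strand: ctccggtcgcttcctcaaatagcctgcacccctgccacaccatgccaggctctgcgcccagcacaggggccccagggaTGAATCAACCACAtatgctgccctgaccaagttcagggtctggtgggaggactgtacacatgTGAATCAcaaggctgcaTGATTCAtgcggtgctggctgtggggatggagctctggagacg
RAC2 +61.4 kb, chr22:37182847-37183046, plus strand: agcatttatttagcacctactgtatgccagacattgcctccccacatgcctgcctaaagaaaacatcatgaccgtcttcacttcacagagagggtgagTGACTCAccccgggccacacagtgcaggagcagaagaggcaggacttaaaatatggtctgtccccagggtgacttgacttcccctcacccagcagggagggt

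Distances are from the start of the canonical transcript to the centre of the region, positive in the direction of transcription. Height is the fold of a peak over its local background, the authors' own value, and a region carries the highest fold of its peaks. Since the lists differ in height as a whole, each log2 ratio of 2 lists is given after subtraction of its median over all regions that the 2 lists share. That median was 0.33 for ATRA over DMSO, −0.09 for Corin over DMSO, 0.03 for the combination over DMSO, −0.34 for the combination over ATRA and 0.10 for the combination over Corin. A shared region is called higher or lower when it lies past 1.5 times after this centring. The number of reads stacked at a summit, the pileup, was recovered from the deposited p and fold, and its 95% exact Poisson interval covers counting error only. Pileups and their intervals are printed unscaled, as counts of each list. The same ratio and limit were also applied to the pileup relative to the level of its list, since the fold moves with the local background and the pileup does not.

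The 4 lists held between 94917 and 116563 regions, and the median fold of a region was 5.05 with DMSO, 7.61 with ATRA, 5.03 with Corin and 6.04 with the combination. Read depth is unknown, and the most frequent local background, a level that grows with depth, was 12.8, 9.12, 13.1 and 13.9 reads in that order. Start regions of 7 of 8 myeloid marker genes were called in all 4 lists and that of MPO in none. Neither T cell marker, neither erythroid marker and not the endothelial marker had a start region in any list, EPCAM had one in the DMSO list alone, and the B cell marker CD79A had one in all 4.

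The windows of CYBB and RAC2 held many regions, those of NCF4 and CYBA a number near the middle of all genes, and that of NCF1 almost none. The CYBB window held 24 regions over the 4 lists, more than 83.6% of 20007 protein-coding genes with windows built in the same way. The RAC2 window held 32 regions, more than the windows of 94.3% of genes. Of these, 7 lay nearest to the RAC2 start and 6 overlapped its gene body. The windows of NCF4 and CYBA held 16 each, against a median of 14 over all genes. Of the 16 in the NCF4 window, 8 lay nearest to the NCF4 start and 3 overlapped its gene body. NCF1 had 1, and 92.9% of genes had more.

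By list, 67 regions were called with DMSO, 74 with ATRA, 59 with Corin and 61 with the combination. All 4 lists held 51 of the 89 regions, or 57.3%, against 41.1% over the whole genome. Another 21 regions were called in 1 list alone, and the strongest of these ranked at percentile 38.5 of its list by p. By list they were 11 with ATRA (12.4%, against 11.4% over the genome) and 5 with DMSO (5.62%, against 10.2%). A further 4 were with Corin (4.49%, against 8.05%) and 1 with the combination (1.12%, against 3.93%). The 51 common regions sat at stable positions: the spread of the summit over the 4 lists had a median of 25 bp and stayed within 50 bp in 37 regions. The widest spread was 1088 bp, in a region upstream of RAC2 that is 1573 bp wide. Regions of the 5 windows were stronger than the middle of each list, with a median percentile by p of 71.1 with DMSO, 64.1 with ATRA, 66.9 with Corin and 71.9 with the combination. Changes in presence fell mostly among weak regions. Of those gained over DMSO, 0 of 15 with ATRA, 0 of 6 with Corin and 1 of 7 with the combination ranked in the stronger 50% of the list of the treatment by p. Of those lost, 0 of 8, 1 of 14 and 1 of 13 ranked in the stronger 50% of the DMSO list. The same shares were not computed over the genome, so whether these windows differ from it in this cannot be said.

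**Figure D1:**
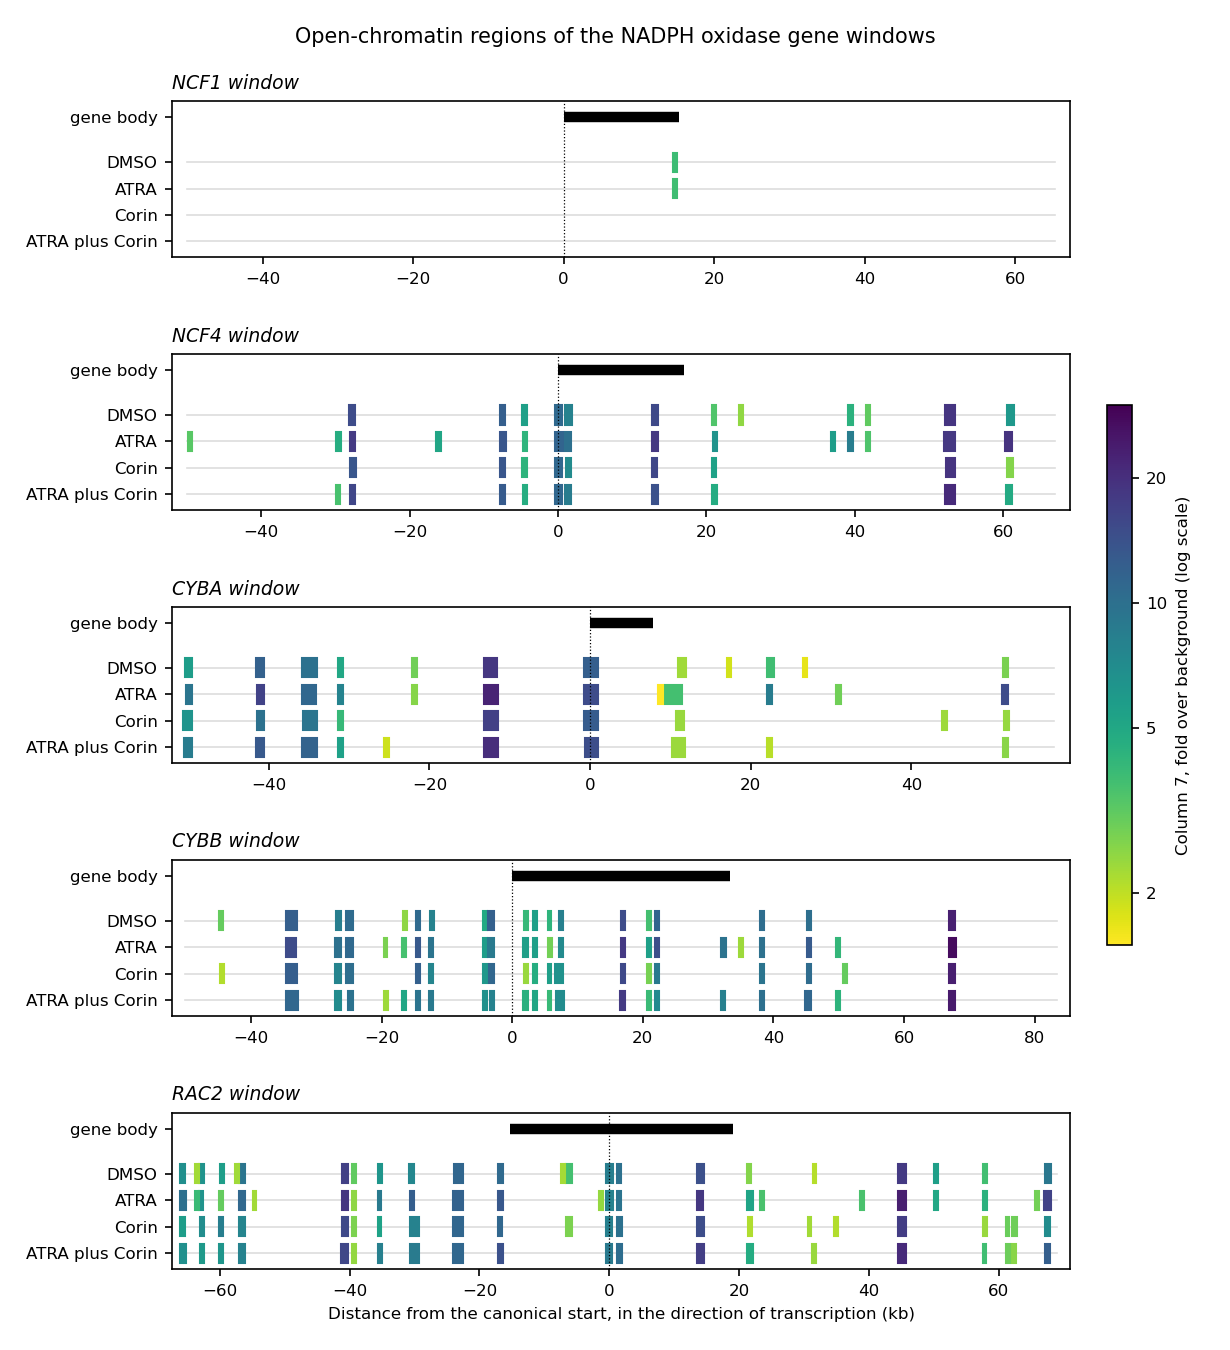
Map of the regions called in the windows of the 5 genes, 1 row per peak list, with the gene body as a black bar and the distance from the canonical start in kb on the horizontal axis. Color gives the fold over background on a log scale, and regions shorter than 0.6 kb are drawn 0.6 kb wide. The NCF1 window is empty apart from 1 region in 2 lists, and the dark, strong regions of the other windows line up across the 4 rows.

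CYBB, which encodes the catalytic subunit, lies on chromosome X from 37780018 to 37813461 on the plus strand. No list held a region within 1 kb of its start, and the nearest regions lay 3.3 kb upstream and 2.0 kb downstream of it. Its gene body overlapped 8 regions, and 18 of the 24 regions of the window were nearest to the CYBB start. The lists held 19, 22, 19 and 21 of the 24 for DMSO, ATRA, Corin and the combination, and 17 were in all 4. Annotated introns of a second coding gene model, ENSG00000250349, run across the window, so that regions upstream of CYBB are intronic to that model.

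A region at the end of the CYBB gene, in its 3′ UTR (chrX:37812080-37812750, +32.4 kb), was called in the 2 lists with ATRA and in neither of the others. Its fold was 9.59 with ATRA and 8.24 with the combination. The pileup was 111 (91.3 to 134) with ATRA and 163 (139 to 190) with the combination, on local backgrounds of 10.7 and 18.9. It was the strongest region of the 5 windows that was gained over DMSO, at percentile 49.8 of the ATRA list and 55.9 of the combination list by p. Of the other regions of the CYBB window, those at −19.4 kb and +49.9 kb had the same pattern of calls. Their folds were 2.73 and 4.15 with ATRA and 2.32 and 4.31 with the combination. The region at −44.5 kb had the opposite pattern, with a fold of 3.04 with DMSO and 2.12 with Corin and no call in the lists with ATRA.

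Among CYBB regions present in every list, the largest fall with ATRA and the largest rise with Corin were in the same region, in an intron at +5.7 kb (chrX:37785522-37786016). Its fold was 4.26 with DMSO, 2.84 with ATRA, 5.58 with Corin and 4.0 with the combination. The ATRA list was thus the lowest and the Corin list the highest. The centred log2 ratio was −0.92 for ATRA, past the limit of 1.5 times, and 0.47 for Corin, within it. The fall with ATRA depended on the local background, which was 69.1 with DMSO and 86.4 with ATRA: on the pileup relative to the level of the list, the centred ratio was −0.37, within the limit.

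At +2.0 kb (chrX:37781652-37782486), over a coding exon and an intron of CYBB, the order of the lists was another. The fold was 4.02 with DMSO, 5.58 with ATRA, 2.39 with Corin and 4.50 with the combination, and Corin was lowest. The pileup was 195 (169 to 224) with DMSO and 109 (89.5 to 131) with Corin. The Corin ratio was −0.67 on the fold and −0.71 on the pileup, and the combination stood 0.81 above Corin on the fold and 1.19 on the pileup. For ATRA the measures differed, with 0.14 on the fold and 0.89, past the limit, on the pileup, which was 387 (349 to 428) with ATRA. Upstream, at −3.3 kb (chrX:37776298-37777235), the fold was 12.1 with DMSO, 8.86 with ATRA, 11.1 with Corin and 7.97 with the combination. The centred ratios on the fold were −0.78 for ATRA and −0.63 for the combination, past the limit, but on the pileup they were 0.09 and −0.30: the pileup was 242 with DMSO and 269 with ATRA, and the local background 19.1 and 29.5.

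At other CYBB regions the call often depended on the measure. The strongest region inside the gene, an intronic one at +17.0 kb with 1 PU.1 match at its summit, had folds of 15.2 with DMSO, 18.3 with ATRA, 15.5 with Corin and 18 with the combination, and its ratios on the fold, −0.06, 0.12 and 0.22, were within the limit, while on the pileup that of the combination was 1.0. An upstream region at −24.9 kb, with 1 PU.1, 1 IRF and 1 RUNX match within 200 bases, had folds of 10.7, 10.9, 10.3 and 9.75, which differed little. The intronic region at +20.9 kb had the largest rise with ATRA among the regions in all 4 lists, with a centred ratio of 0.26 on the fold. On the pileup, which was 93 with DMSO, 166 with ATRA and 174 with the combination, its ratios were 0.73 for ATRA and 0.74 for the combination, past the limit. Its neighbour at +22.2 kb had folds of 11.4, 14.6, 8.98 and 7.36 and had a ratio of −0.66 for the combination over DMSO and over ATRA. On the pileup these were −0.34, within the limit, and −0.59, just past it. A region at −4.2 kb had folds of 4.94, 5.75, 6.06 and 6.68, the largest rise with the combination, at 0.41 on the fold and 0.71 on the pileup, while its ATRA ratio was −0.12 and 0.64. The region at −16.5 kb was called with DMSO (2.50), ATRA (3.61) and the combination (5.10) and not with Corin, and its ratio of the combination over DMSO was 1.0 on the fold and 1.33 on the pileup. The strongest region of the window was the start of the neighbouring gene DYNLT3, a dynein light chain, with folds of 23, 27.4, 23.3 and 24.4.

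CYBA, the partner of the catalytic subunit, lies on chromosome 16 from 88643275 to 88651083 on the minus strand. Its start (chr16:88650009-88651762) was open in every list, with folds of 12.2 with DMSO, 15.1 with ATRA, 12.7 with Corin and 14.7 with the combination. The centred ratios were −0.02, 0.15 and 0.24, none past the limit. This was the 1 region in the gene body and the 1 region nearest to the CYBA start. The other regions of the window lay nearer to the start of another gene.

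The CYBA window held 12, 12, 9 and 10 regions in the 4 lists, 8 of them in all 4. The largest difference of any shared region of the 5 windows was at +51.7 kb (chr16:88599010-88599725), in an intron of ZC3H18, a gene for an RNA-processing factor. The fold was 2.75 with DMSO, 15.2 with ATRA, 2.41 with Corin and 2.54 with the combination. The pileup was 37 (26.1 to 51.0), 153 (130 to 179), 33 (22.7 to 46.3) and 37 (26.1 to 51.0), so that ATRA alone stood apart and the other 3 lists overlapped. The centred ratio was 2.13 for ATRA, at percentile 99.8 of all shared regions, and −2.24 for the combination over ATRA, at percentile 0.114. On the pileup the ratios were 1.95 and −2.04. The window of this region shown above holds 2 PU.1 matches, both on the minus strand.

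A region at +22.5 kb in ZC3H18 had folds of 3.78 with DMSO and 8.6 with ATRA, no call with Corin and 2.08 with the combination, but its local background fell from 30.5 with DMSO to 11.1 with ATRA while the pileup went from 118 to 103. The start of MVD, an enzyme of the mevalonate pathway, was the strongest region, at 18.6, 22.6, 17.1 and 20.4. The region at −50.1 kb, over RNF166, had folds of 5.7, 9.31, 6.36 and 8.62, with ratios of 0.37, 0.24 and 0.57 on the fold. On the pileup those of ATRA and the combination, 0.65 and 0.66, passed the limit. Regions at −34.9 kb and −31.1 kb, at SNAI3, had the largest fall with ATRA, −0.15, and with Corin, −0.23, both within the limit.

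NCF1, the organizer, lies on chromosome 7 from 74774011 to 74789315 on the plus strand. The window held a single region, in an intron near the end of the gene (chr7:74788742-74788921, +14.8 kb). Its fold was 3.84 with DMSO and 3.76 with ATRA, at pileups of 52 (38.8 to 68.2) and 37 (26.1 to 51.0), and it was not called with Corin or the combination. The start was not called in any list. NCF1 lies in a segmental duplication that also holds the pseudogenes NCF1B and NCF1C, and reads from copies with the same sequence cannot be placed. In the NCF1 window 86.1% of all 50-base words and 74.1% of all 100-base words occur again elsewhere in hg38. For the other 4 windows the shares were 2.60% to 5.12% and 0.0676% to 1.18%. The windows of NCF1B and NCF1C held 4 and 2 regions. An absent call at NCF1 can therefore not be told apart from reads that were left out, and whether the filter on multiply placed reads set it was not tested.

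**Figure D2:**
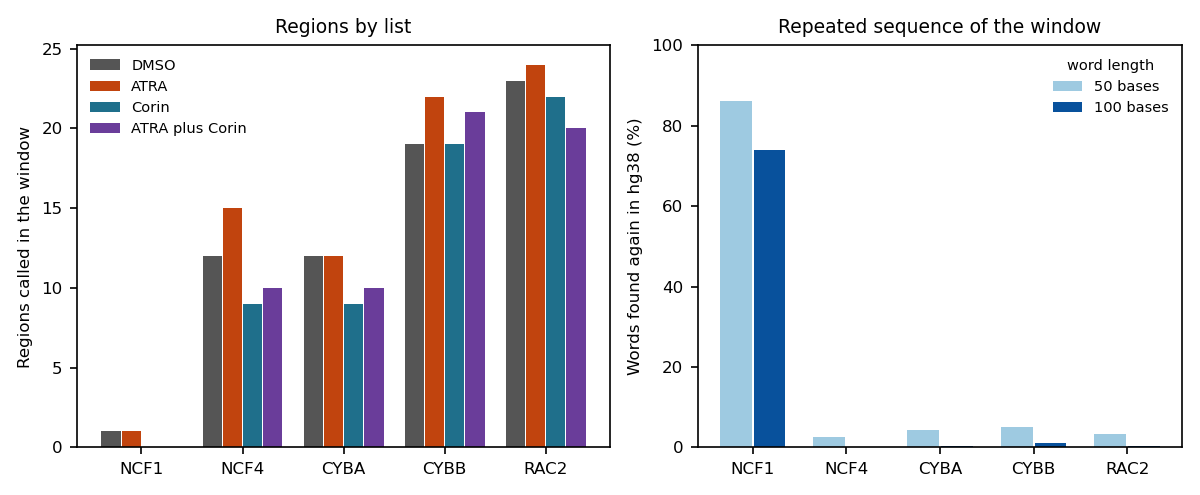
Left, the number of regions called in the window of each gene by peak list. Right, the share of 50-base and 100-base words of each window that occur again in hg38, in percent; NCF1 stands apart in both panels, with at most 1 region per list and 86.1% repeated 50-base words.

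NCF4, the subunit that binds phosphoinositide, lies on chromosome 22 from 36860988 to 36878017 on the plus strand. Its start (chr22:36860620-36861599) was the strongest region of the window by p and had folds of 10.9 with DMSO, 11.6 with ATRA, 11 with Corin and 11.2 with the combination. A second region 1.4 kb inside the gene had folds of 8.01, 10.1, 7.14 and 8.58. Its ATRA ratio was 0.00 on the fold and 0.58, just within the limit, on the pileup. The centred ratios at the start were −0.25, 0.09 and 0.01, none past the limit. Pileups at the start were high, between 780 and 1190 reads, so counting error was small. The intronic region at +13.1 kb, past the same limit in no comparison, had folds of 15.4, 18.4, 15.8 and 14.2.

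The window held 12 regions with DMSO, 15 with ATRA, 9 with Corin and 10 with the combination, and 9 were in all 4. ATRA alone held 3 regions, at −49.6, −16.1 and +37.0 kb, with folds of 3.26, 5.14 and 5.73. DMSO and ATRA shared 2 further regions, at +39.4 and +41.7 kb, that were called in neither list with Corin. The fold at +39.4 kb, nearest to the start of CSF2RB, was 4.42 with DMSO and 8.50 with ATRA. The pileup there was 60 and 85, on local backgrounds of 12.8 and 9.12. The ATRA ratio was 0.61 on the fold and 0.40, within the limit, on the pileup.

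The largest change of the window was at +60.8 kb (chr22:36921294-36922400), over exons and an intron of CSF2RB, which encodes the shared beta chain of the receptors for GM-CSF, interleukin-3 and interleukin-5. The fold was 6.09 with DMSO, 19.4 with ATRA, 2.62 with Corin and 4.89 with the combination. The pileup was 83 (66.1 to 103), 272 (241 to 306), 36 (25.2 to 49.8) and 72 (56.3 to 90.7). ATRA was highest and Corin lowest, and the counting intervals of DMSO and the combination overlapped. The centred ratio was 1.34 for ATRA (percentile 96.9 of all shared regions), −1.13 for Corin (percentile 1.74) and −0.34 for the combination. The combination over ATRA was −1.65, at percentile 1.33, and over Corin it was 0.80. On the pileup these were 1.61, −1.07, −0.36, −1.91 and 0.72. None of the motifs searched occurs in the 200 bases at its summit shown above.

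Nearer to NCF4, the region at −4.6 kb had folds of 5.54 with DMSO, 4.26 with ATRA, 4.33 with Corin and 4.64 with the combination. The ATRA ratio of −0.71 passed the limit on the fold but was −0.31 on the pileup. At +21.1 kb, past the end of the gene, the folds were 3.41, 6.42, 5.38 and 4.75, lowest with DMSO. The Corin ratio there was 0.74 on the fold and 0.84 on the pileup, from pileups of 46 (33.7 to 61.4) and 75 (59.0 to 94.0).

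RAC2, the GTPase, lies on chromosome 22 from 37225270 to 37259594 on the minus strand. Its canonical start (chr22:37243719-37244826) had folds of 8.42 with DMSO, 8.01 with ATRA, 8.25 with Corin and 8.79 with the combination. The 4 lists lay close together, and the centred ratios were −0.41, 0.06 and 0.04. Intronic regions at +1.5 and +14.0 kb were also in every list, at 9.93, 9.49, 9.86 and 10.4 and at 14.5, 18.7, 15.0 and 17.4. The strongest region lay at +45.1 kb, nearest to the start of C1QTNF6, at 18.1, 23.4, 17.6 and 20.9.

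The lists held 23, 24, 22 and 20 of the 32 regions of the RAC2 window, and 17 were in all 4. Within this window, a shared region past the limit with both single compounds lay at −59.8 kb (chr22:37303717-37304383), in an intron of CYTH4, which encodes a cytohesin, an exchange factor for ARF GTPases. The fold was 5.65 with DMSO, 3.06 with ATRA, 8.43 with Corin and 6.32 with the combination. The pileup was 669 (619 to 722), 297 (264 to 333), 930 (871 to 992) and 804 (749 to 862). No 2 of these counting intervals overlapped, but the counts are not scaled to the level of each list. Relative to that level the pileup was 52.3, 32.6, 70.8 and 57.7. The local background was 117, 96.5, 109 and 126, far above the level of the lists. The centred ratio was −1.22 for ATRA (percentile 1.22), 0.66 for Corin (percentile 95) and 0.13 for the combination, which stood 1.38 above ATRA (percentile 99.7). On the pileup the ratios were −1.27 for ATRA, 0.61 for Corin and 0.11, within the limit, for the combination. The sequence of this window shown above holds 3 AP-1 matches and 1 RUNX match, and 1 AP-1 match directly adjoins the RUNX match.

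Other regions of the RAC2 window changed in presence. The ATRA list alone held 5 regions, with folds from 2.27 to 3.56. Only the one at −1.3 kb, just upstream of the start, was nearest to RAC2. Its fold was 2.41 on a local background of 94.1. Regions at +61.4 and +62.4 kb, over C1QTNF6, were called only in the lists with Corin, with folds of 2.98 and 2.90 with Corin and of 2.93 and 2.54 with the combination. The regions at +50.4 kb (5.57 with DMSO, 5.01 with ATRA) and −63.5 kb (2.27 with DMSO, 3.92 with ATRA) were called in neither list with Corin. The first ranked at percentile 56.1 of the DMSO list by p, the highest of any region lost with Corin. At +21.6 kb the folds were 2.60, 5.22, 2.14 and 4.75, higher in both lists with ATRA, with ratios of 0.67 for ATRA and 0.84 for the combination. There the ATRA ratio on the pileup, 0.56, fell short of the limit and that of the combination, 0.79, did not. The regions with the largest fall with Corin, at +57.9 kb, and with the combination, at −39.3 kb, were within the limit at −0.55 and −0.37.

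**Figure D3:**
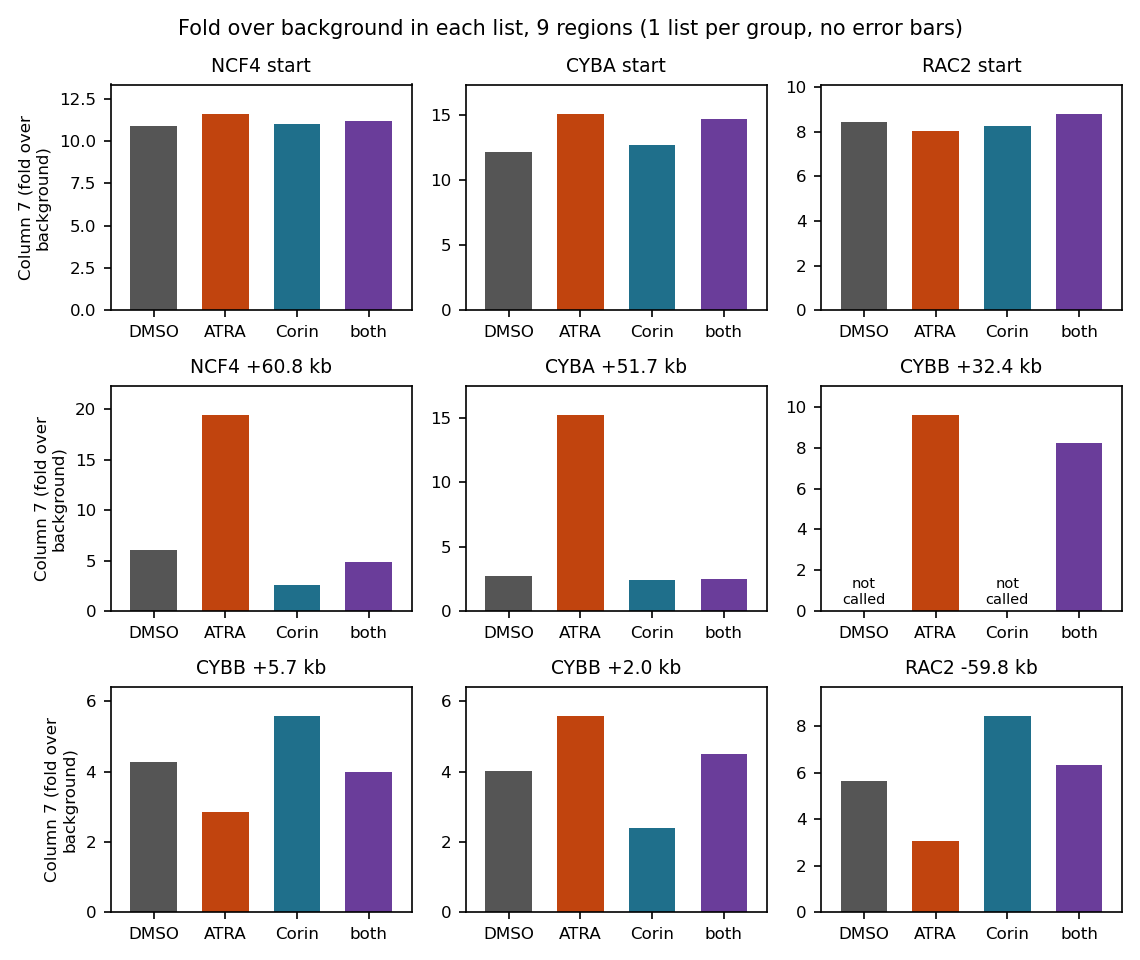
Fold over background (vertical axis, from 0) in each of the 4 peak lists for the 3 called starts and 6 distal regions. Each bar is 1 list, with no error bars as the 2 samples of a group share 1 list. The starts are nearly level, the NCF4 +60.8 kb and CYBA +51.7 kb regions are highest with ATRA at 19.4 and 15.2, and the RAC2 −59.8 kb region is lowest with ATRA at 3.06 and highest with Corin at 8.43.

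Counted over the 5 windows, gains and losses of calls were no more frequent than over the genome in any of the 5 comparisons. With ATRA, 15 of 74 regions (20.3%) had no counterpart in DMSO, against 23.3% of all ATRA regions, and 8 of 67 DMSO regions (11.9%) had none in ATRA, against 25.4%. With Corin, 6 of 59 (10.2%) were gained, against 17.8% in the genome, and 14 of 67 (20.9%) were lost, against 28.4%. With the combination, 7 of 61 (11.5%) were gained, against 16.6%, and 13 of 67 (19.4%) were lost, against 31.6%. The 15 regions gained with ATRA outnumbered the 8 lost, while Corin and the combination each lost more than they gained. Over the genome 25755 were gained and 28848 lost with ATRA. With Corin 17617 were gained and 32277 lost there, and with the combination 15472 and 36007. The lists differ in length. Cut to equal length, 10 regions of the 5 windows were gained and 6 lost with ATRA, and 7 gained and 10 lost with Corin. With the combination 10 were gained and 9 lost, so that the order turned. Genome counts at equal length were not computed.

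Set against ATRA alone, the combination held 4 regions of 61 (6.56%) that ATRA lacked, against 15.4% over the genome. It lacked 17 of the 74 ATRA regions (23%), against 28.7%. Set against Corin alone, it held 8 regions of 61 (13.1%) that Corin lacked, against 20.4%, and lacked 6 of 59 (10.2%), against 25.1%. The comparisons share lists and are not independent of each other.

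Height changed past 1.5 times in few shared regions. With ATRA, 5 of 59 were higher (8.47%, against 16.6% of all shared regions) and 5 were lower (8.47%, against 8.80%). On the fold, 0 of the 5 higher regions were nearest to an oxidase gene: they lay at CSF2RB, ZC3H18 and between RAC2 and SSTR3. Of the 5 lower regions 3 were nearest to NCF4 or CYBB and the other 2 lay at CYTH4. With Corin, 2 of 53 were higher (3.77%, against 6.34%) and 2 were lower (3.77%, against 10.8%). With the combination, 2 of 54 were higher (3.70%, against 8.26%) and 3 were lower (5.56%, against 12.1%).

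Which regions were called, and how many, depended on the measure. On the pileup 11 of 59 were higher with ATRA (18.6%, against 18.3% of all shared regions) and 5 were lower (8.47%, against 16.4%). Of the 11, 2 were also higher on the fold, NCF4 +60.8 kb and CYBA +51.7 kb, and 5 were nearest to an oxidase gene, all of them to CYBB: −16.5, −14.4, −4.2, +2.0 and +20.9 kb. Of the 5 lower, 1 was also lower on the fold, RAC2 −59.8 kb. With Corin 2 of 53 were higher (3.77%, against 10.2%), both also on the fold, and 3 were lower (5.66%, against 13.9%), of which 2 were lower on the fold. With the combination 8 of 54 were higher (14.8%, against 12.5%), of which 2 were also higher on the fold and 4 were nearest to CYBB, and 2 were lower (3.70%, against 19.4%).

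Relative to ATRA, the combination was higher on the fold in 3 of 57 shared regions (5.26%, against 7.18%) and lower in 4 (7.02%, against 18.1%). The 4 lower regions were NCF4 +60.8 kb, CYBA +51.7 kb, CYBA +22.5 kb and CYBB +22.2 kb. The ATRA list is a term of this comparison and of ATRA over DMSO, so the values of the 2 comparisons are tied to each other. Relative to Corin, 4 of 53 were higher on the fold (7.55%, against 9.71%) and 0 were lower, against 8.97% of all shared regions. The median centred ratio of the shared regions was −0.07 with ATRA, 0.01 with Corin and 0.05 with the combination over DMSO, and 0.17 for the combination over ATRA, against 0 over the genome by construction. On the pileup, the combination was higher than ATRA in 8 of 57 shared regions (14.0%) and lower in 5 (8.77%). It was higher than Corin in 9 of 53 (17.0%) and lower in 1 (1.89%). Of these, 2, 4, 3 and 0 in that order had the same call on the fold. For these pileup counts no share over the genome was computed.

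**Figure D4:**
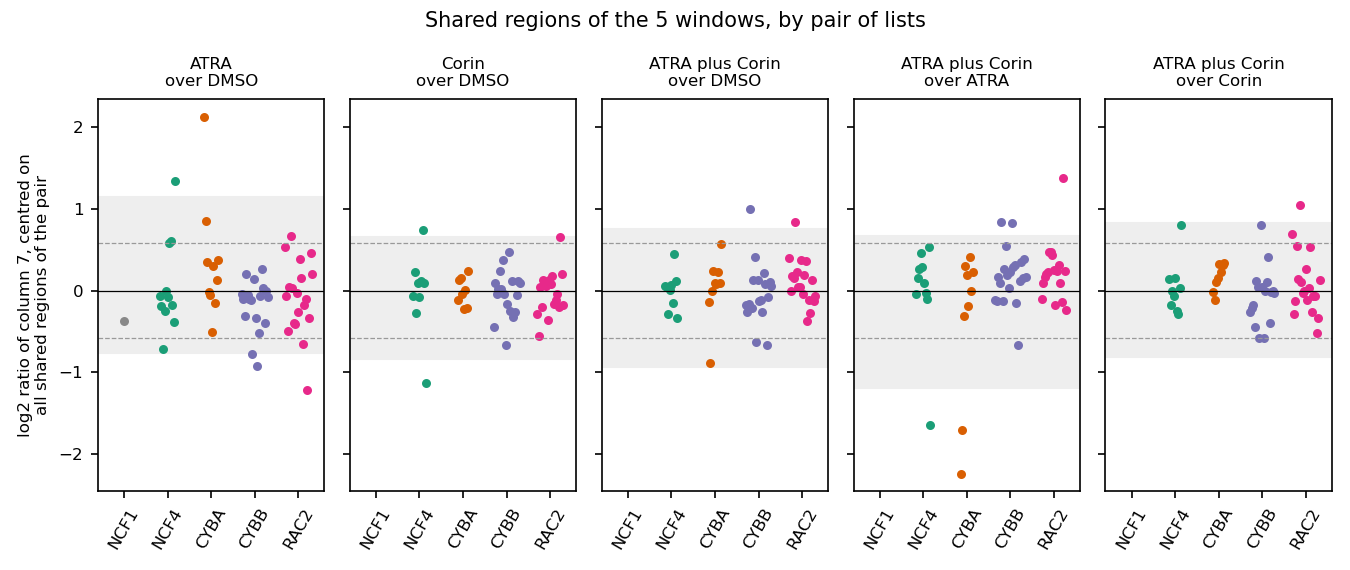
Centred log2 ratio of fold for each region shared by a pair of lists (vertical axis), by gene window (horizontal axis), 1 panel per pair; grey bands span the 5th to 95th percentile of all shared regions and dashed lines mark 1.5 times. Most points lie between the dashed lines, and the points farthest out are CYBA +51.7 kb at 2.13 with ATRA and −2.24 for the combination over ATRA.

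At the starts of the genes the groups were close together. Of the 5 starts, 3 were called in all 4 lists, and 0 of the 3 passed the limit with any treatment. The share of all coding genes with a start called in all 4 lists was not computed. Whether 3 of 5, or the counts of called starts among the marker and related genes, are usual therefore cannot be said. On the fold the ATRA ratios were −0.25 for NCF4, −0.02 for CYBA and −0.41 for RAC2, inside the range of all start regions of coding genes. The median of that range was −0.19 and its 5th and 95th percentiles −0.55 and 0.43. On the pileup the same 3 ratios were 0.29, 0.03 and −0.01, so their direction depended on the measure. For Corin the 3 ratios on the fold, from 0.06 to 0.15, lay beside a median of 0.07. For the combination they ran from 0.01 to 0.24, beside a median of 0.04. Past 1.5 times lay 3.07% (higher) and 3.85% (lower) of all start regions with ATRA, 1.54% and 1.34% with Corin, and 2.48% and 1.62% with the combination.

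The same was asked of 20 genes related to the oxidase, again with no share of all coding genes beside the counts of called starts. Of 8 homologues and organizers of other tissues (NOX1, NOX3, NOX4, NOX5, DUOX1, DUOX2, NOXO1 and NOXA1), NOXA1 had a start region in all 4 lists, at 12.2, 11.3, 10.6 and 11.8. NOX3 had one with ATRA alone, at 3.06, and the other 6 had none. Of 12 partners and regulators, 11 had a start region in every list. The exception was HVCN1, the voltage-gated proton channel that balances the charge moved by the oxidase, with a fold of 2.69 with Corin and 1.76 with the combination and no call with DMSO or ATRA.

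Among the 11 partners and regulators shared with DMSO, 0 were higher and 2 were lower with ATRA (3.07% and 3.85% of all start regions). With Corin 0 were higher and 0 lower (1.54% and 1.34%). With the combination 0 were higher and 1 lower (2.48% and 1.62%). These calls are on the fold, and no pileup ratios were computed for these starts. PREX1, an exchange factor for RAC proteins, had folds of 8.13 with DMSO, 5.79 with ATRA, 9.55 with Corin and 9.16 with the combination, lowest with ATRA at a ratio of −0.83. PIK3CG, the catalytic subunit of a phosphoinositide kinase of leukocytes, had folds of 9.08, 7.26, 7.75 and 4.89, and its ratios were −0.66 for ATRA and −0.92 for the combination. RAC1, the widely expressed relative of RAC2, had folds of 14.9, 16.7, 12.8 and 13.8. CYBC1, a chaperone of the CYBB protein, had folds of 11.3, 12.5, 12.8 and 15.7, with a ratio of 0.44 for the combination, within the limit. The 11 had a median ratio of −0.39 with ATRA, 0.19 with Corin and 0.14 with both compounds. Over all start regions these medians were −0.19, 0.07 and 0.04.

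Sequence at the summits was compared with all 161291 windows of 200 bases. PU.1 is a factor that defines the myeloid lineage, and its letters occurred in 11 of the 89 windows (12.4%), against 6.72% of all windows. The IRF letters occurred in 5 (5.62%, against 3.07%), the GC box in 15 (16.9%, against 11.4%) and RUNX in 18 (20.2%, against 20.7%). C/EBP occurred in 7 (7.87%, against 14.5%) and AP-1 in 8 (8.99%, against 12.2%). The direct repeat bound by retinoic acid receptors, GGTCA repeated after 5 free bases, occurred in 0 of 89 and in 0.0775% of all windows, so its absence says nothing about the receptor here.

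Motifs were also counted by direction of change, with higher and lower called on the fold. AP-1 letters occurred in 3 of the 6 regions gained with Corin (20.4% of such regions in the genome). Both regions that were higher with Corin held them (56.7%). AP-1 letters occurred in 0 of the 15 regions gained with ATRA (6.67%) and in 2 of the 5 that were lower with ATRA (27.9%). The first of those 2 was CYBB +5.7 kb, within the limit on the pileup at −0.37. The second was the RAC2 −59.8 kb window shown above, which is also among the regions higher with Corin. PU.1 letters occurred in 2 of the 5 regions higher with ATRA (15.3%) and in 1 of the 15 gained with ATRA (12.4%). The 2 higher regions were CYBA +51.7 kb and NCF4 +39.4 kb, and the latter was within the limit on the pileup, at 0.40. With so few regions these shares describe the members and were not tested.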

How the data were processed

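The 8 ATAC-seq samples fall into 4 groups per the labels. The authors deposited 1 narrowPeak list per group, made from both samples and tied to its group by the treatment in its name. Per the submitters' processing notes the tools were cutadapt, Bowtie2, SAMtools, Picard and MACS2 with hg38. Their versions, roles and settings, and how multiply placed reads were treated, are not given in the sources used here. No peak end (0) lay beyond the hg38 chromosome lengths. Per the narrowPeak layout of the deposited files, column 7 is a ratio (the fold of a summit over local background), and columns 8 and 9 are −log10 p and −log10 q. The deposited score of column 5 was not used, and the deposited column 10 is the distance in bp of the summit from the peak start. The lists held 222491, 222110, 189896 and 197548 peaks (DMSO, ATRA, Corin, combination), from a lowest −log10 p of 2.79, 2.00, 2.00 and 2.00.

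Overlapping peaks on 24 chromosomes were merged into regions, and regions of the 4 lists that overlapped by at least 1 bp into a union. Genes were taken from GENCODE release 44, and a start region lies within 1 kb of the canonical start. Pileup and background were solved from p and fold, taking p as a Poisson tail and adding 1 to both in the fold; the solved pileup was whole, within 0.05, for 99.85% to 99.98% of peaks, and the most frequent background was taken as the level of a list. The steps were tested on simulated data. No columns of single samples were present (0 left out).

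The 5 genes, the related genes, the markers, the motifs and the alternatives were chosen with earlier results of these data known. The text names the start region of each gene, each region gained or lost against DMSO that ranks in the stronger 50% of a list holding it, the largest rise and fall with each treatment among regions in all 4 lists, and the strongest region. Other regions named were chosen after their values were seen. Of the markers and sequences, 2 are not reported here. Motif windows of 200 bp were centred on the summit of highest fold in the list with the highest −log10 p for the region. Computations used Python 3.11.15 with numpy 2.4.6, pandas 2.3.3, scipy 1.17.1, pysam 0.24.0 and numba 0.67.0.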

Additional observations from a re-analysis of the deposited data

How the results depend on the processing

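No paired analysis was possible because each group has a single list, made from both of its samples, and for the same reason no replicate could be left out. Of 108 values of 14 counts under the alternatives, 68 stayed within 1.5 times the reported count and 40 did not. Within 10 kb of a gene body, and among regions nearest to an oxidase gene start, the regions numbered 34 and 35, of which 24 and 25 were in all 4 lists. Gains over DMSO were then 5 and 4 with ATRA, 0 and 0 with Corin and 1 and 2 with the combination. Losses were 4 and 4, 4 and 4, and 5 and 5. Higher regions were 1 and 0, 1 and 1, and 1 and 1, and lower ones were 3 and 3 with ATRA and 1 and 1 with Corin. With peaks of −log10 q of at least 5, losses with ATRA were 4 and gains with Corin 3. With a limit of 2 times, 2, 0 and 1 regions were higher and 1, 1 and 0 lower with ATRA, Corin and the combination. With lists of equal length 3 were higher with ATRA and 1 with the combination, and with an overlap of 50% 1 was higher with the combination. On the pileup 11 and 8 were higher with ATRA and the combination, of which 2 and 2 were also higher on the fold. Centring within 10 classes of the DMSO fold, added after the data were seen, left 3 higher with ATRA. The shorter distances leave fewer regions by construction; for the others the cause was not tested. Read depth is unknown, and with 1 list per group counting error is the only error that can be given.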
